A study of Homo sapiens with 12 samples.

Results

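The S100 proteins are small calcium-binding proteins, and 10 of their genes are described here across the 12 RNA-seq libraries of IMR90 ER:RAS cells: S100A2, S100A3, S100A4, S100A6, S100A8, S100A9, S100A10, S100A11, S100A13 and S100A16. They were taken by symbol from a table of 62069 genes, and the rule that takes them uses no measured value. IMR90 ER:RAS cells are human lung fibroblasts in which RAS is fused to a hormone-binding stretch of the estrogen receptor; 4-hydroxytamoxifen (4OHT) turns this RAS on, and oncogene-induced senescence (OIS) follows. The 4 groups of 3 libraries were cells without 4OHT (non-induced), cells with 100 nM 4OHT (induced), and cells with 100 nM 4OHT that also expressed 1 of 2 short hairpin RNAs (shRNAs) against XPO7, a nuclear transport receptor (shXPO7_3 and shXPO7_5). The study describes the cells without such a hairpin as carrying a vector. Every group came from the same line at passage 13 and was labelled day 5, the non-induced group included, and the growth notes give 7 days of culture with a change of medium on day 4. Separate cultures are not stated for the libraries within a group, so p-values measure a spread between libraries that may be technical.

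An S100 protein carries a pair of EF-hands, the loops that bind calcium, and works as a dimer that changes shape on binding calcium and then grips a target protein. Inside the cell such targets include annexins, myosin and p53. Several family members are also released and act on receptors such as RAGE and TLR4, and S100A8 with S100A9 forms calprotectin, the major cytosolic protein of neutrophils. Most of the genes lie together on chromosome 1, on both sides of the epidermal differentiation complex, whose genes build the cornified envelope of skin.

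Reads per library ran from 28534141 to 60397769, and levels are given as counts per 1000000 reads after TMM scaling (CPM), with libraries in the order T, A, C for the non-induced group and T, A, B for the others. The hairpins were checked first on their target. XPO7 stood at 135 ± 7.04 CPM in non-induced and 137 ± 8.81 in induced cells (SD, n = 3), at 27.7 ± 1.14 with shXPO7_3 and at 52.2 ± 1.62 with shXPO7_5. All 8 fibroblast markers examined were expressed. Of 9 myeloid markers 7 never reached 10 counts in a library. Of 8 epithelial markers KRT5 and KRT14 had no count and 4 were tested, with KRT18 at 29.1 to 46.4, KRT8 at 5.71 to 11.6, KRT19 at 1.09 to 36.5 and EPCAM at 0.357 to 1.11 CPM. Of 4 endothelial markers PECAM1 and CDH5 had no count, while TEK stood at 4.70 to 12.7 and VWF at 1.70 to 4.17 CPM. In bulk RNA of this kind, a change in the share of cells that express a gene and a change in RNA per cell cannot be told apart.

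Of the 10 genes, 8 passed the filter on low counts and were tested, and S100A8 and S100A9 were at 0 counts in all 12 libraries. A count of 3 over all libraries would correspond to 0.00664 CPM, which is the limit that these zeros set; within a group the limit was 0.0233 to 0.0302 CPM. It covers counting error only. Among the expressed genes the level per kilobase of exon separated a pair of abundant transcripts, a middle group and a low group. In non-induced cells S100A6 had 972 ± 102 CPM per kilobase and S100A11 had 640.1 ± 72.3 (SD, n = 3). S100A10 followed at 153 ± 16.8, S100A16 at 118 ± 6.63 and S100A13 at 54.5 ± 3.51 CPM per kilobase. The low group was S100A4 at 12.01 ± 1.07, S100A3 at 2.92 ± 0.512 and S100A2 at 1.79 ± 0.0914 CPM per kilobase. Each gene was above the next in this order in all 3 non-induced libraries. S100A6 and S100A11 together made up 79.5 to 82.9% of the CPM per kilobase of the 8 genes in every library. Exon lengths came from the union of all annotated transcripts of a gene, so the order between genes depends on that choice while a comparison between groups for 1 gene does not.

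**Figure D1:**
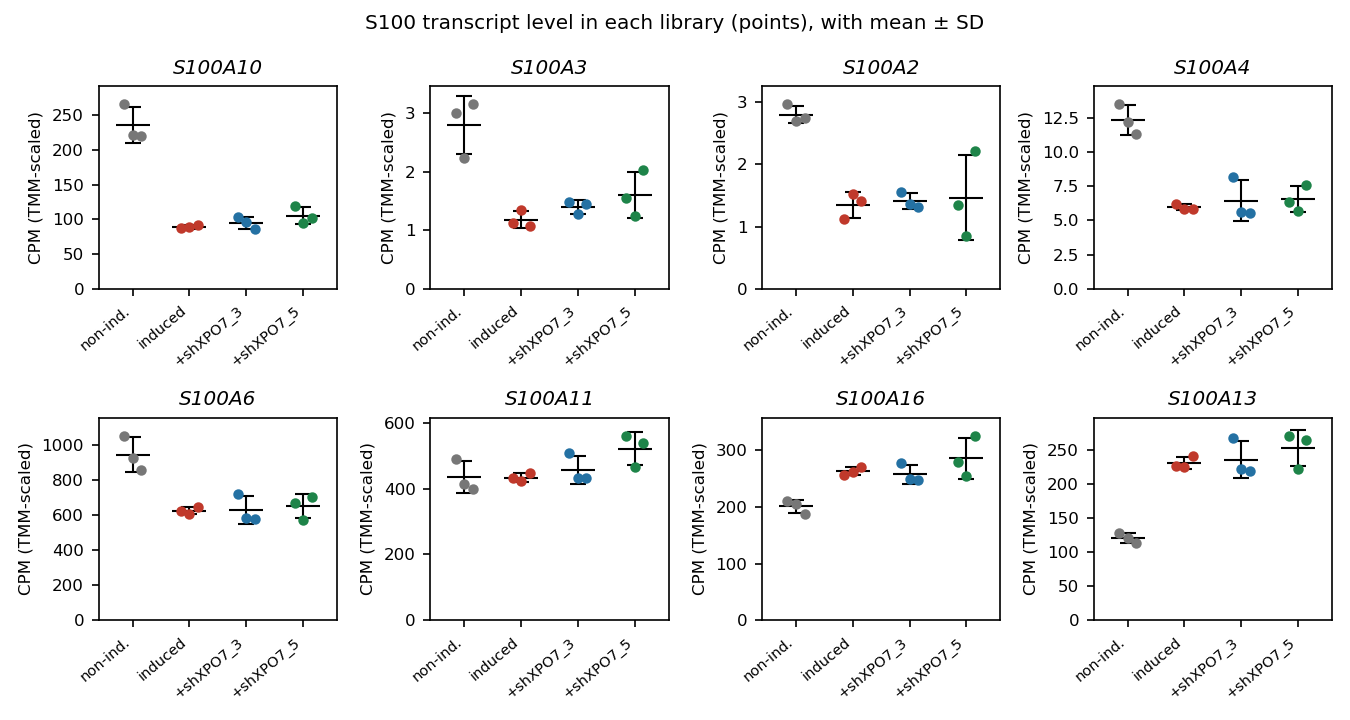
Level of each of the 8 expressed S100 genes, in CPM on an axis that starts at 0, with a point per library and the mean ± SD of the 3 libraries of each group. S100A10, S100A3, S100A2, S100A4 and S100A6 were highest in the non-induced group, S100A16 and S100A13 were lowest there, and S100A11 overlapped between non-induced and induced cells.

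Induction of RAS went with a lower level of S100A10, S100A3, S100A2, S100A4 and S100A6 and a higher level of S100A13 and S100A16, while S100A11 did not pass the test. In all, 7 of the 8 tested members passed edgeR's quasi-likelihood test at an adjusted p (Benjamini-Hochberg over all genes tested) under 0.05, of which 5 fell and 2 rose. This comparison changed much of the transcriptome: 50.9% of the 15284 genes tested passed, 24.8% upward and 26.1% downward. The median log2 fold change of the 8 members was -0.82, against -0.01 over all genes tested. Their median absolute log2 fold change was 0.99, against 0.38. Groups that did not overlap in any library were found for the same 7 members and for 63.2% of all genes tested. The 8 fibroblast markers moved as well, from 24016 to 27880 CPM in sum without 4OHT to 16696 to 18154 CPM with it, and 5 of them fell. The epithelial markers summed to 69.2 to 84.6 CPM without and 40.1 to 46.3 with 4OHT. KRT19, KRT8 and EPCAM passed as lower, while KRT18 had a positive log2 fold change and did not pass. The endothelial markers summed to 14.4 to 14.8 CPM without and 9.04 to 10.0 with 4OHT. TEK passed as lower, while VWF had a positive log2 fold change with an unadjusted p under 0.05 (edgeR) and did not pass. Of the 2 tested myeloid markers, CSF1R, at 0.267 to 1.26 CPM over all libraries, passed as higher. CSF1R did not pass the filter on the non-induced libraries alone, so its values do not test its direction. LYZ had a negative log2 fold change and did not pass. The part of these shifts in the S100 values was not tested.

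The largest fall was that of S100A10, also called p11, which does not respond to calcium, joins annexin A2, brings ion channels to the cell surface and binds plasminogen there. S100A10 stood at 266, 221 and 220.3 CPM in the non-induced libraries and at 87.0, 88.6 and 92.2 in the induced ones. The induced libraries lay close together and far below the lowest non-induced one. The log2 fold change was -1.40 ± 0.103 (SE, n = 3 in each group), a level 37.9% of that without 4OHT, with an adjusted p of 2.63e-07 in edgeR's quasi-likelihood test. The exact two-sided permutation test gave p = 0.1, the smallest value that 3 libraries against 3 allow, as it did for each of the 7 members.

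S100A4 binds non-muscle myosin and is widely used as a fibroblast marker. S100A4 was measured at 13.5, 12.2 and 11.3 CPM without 4OHT and at 6.23, 5.81 and 5.83 with it, and the groups did not overlap. Its log2 fold change was -1.05 ± 0.154 (adjusted p = 0.000119, edgeR). The neighbouring genes S100A3, known from the hair cuticle, and S100A2, known as a p53 target in epithelium, moved to a similar extent from low levels. S100A3 stood at 2.997, 2.23 and 3.15 CPM in non-induced and at 1.12, 1.35 and 1.07 CPM in induced cells, on 38 to 111 reads per library. S100A2 stood at 2.97, 2.70 and 2.75 CPM against 1.12, 1.52 and 1.41, on 41 to 111 reads. Neither pair of groups overlapped. The log2 fold change was -1.25 ± 0.197 for S100A3 (adjusted p = 0.000195, edgeR) and -1.05 ± 0.255 for S100A2 (adjusted p = 0.00428). S100A3 lies inside the annotated span of S100A4 on the same strand, and how reads in the shared part were counted is not given, so that part of the values of these 2 genes is uncertain.

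S100A6, or calcyclin, a partner of annexins and of the calcyclin-binding protein, was the most abundant member without 4OHT. It stood at 1049.8, 926 and 854 CPM in the non-induced libraries and at 624, 607 and 644 in the induced ones, with no overlap. The log2 fold change was -0.59 ± 0.105 (adjusted p = 0.000466, edgeR), a level 66.2% of that without 4OHT. S100A11, which works with annexin A1 and in keratinocytes restrains growth, showed 491, 415 and 399.7 CPM without and 431, 422 and 448 CPM with 4OHT. These groups overlapped. The difference on the log2 scale was -0.01 with a 95% interval of -0.22 to 0.21, so that a change beyond about that size is outside the interval, and the adjusted p was 0.97 in edgeR. After induction S100A6 and S100A11 stood side by side, at 644 ± 19.0 and 638 ± 19.3 CPM per kilobase (SD, n = 3), and their libraries overlapped.

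S100A13 moved the other way. It is known for helping FGF1 and interleukin-1 alpha, proteins that lack a signal peptide, to leave the cell. S100A13 stood at 129, 121 and 113 CPM in non-induced and at 226, 224 and 241 CPM in induced cells. All 3 induced libraries were above all 3 non-induced ones. The log2 fold change was 0.93 ± 0.0965, or 1.91-fold, with an adjusted p of 5.89e-06 in edgeR. S100A16, a broadly expressed member that binds calcium at 1 of its EF-hands only, rose less: its libraries gave 210.0, 205 and 188 CPM without and 257, 262 and 270.4 CPM with 4OHT. They did not overlap, and the log2 fold change was 0.39 ± 0.0877 (adjusted p = 0.00278, edgeR), or 1.31-fold. S100A13 overlaps S100A1 on the opposite strand, which had 109 counts over all libraries; genes antisense to S100A6 and S100A11 had 23 and 153.

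The ratio of S100A13 to S100A10 gives this divergence within each library, free of scaling between libraries. In CPM it ran from 0.484 to 0.545 in the non-induced group and from 2.53 to 2.62 in the induced one. It ran from 2.32 to 2.59 with shXPO7_3 and from 2.28 to 2.59 with shXPO7_5. Per kilobase, S100A10 was above S100A16 and S100A13 in each non-induced library and below both in each of the 9 libraries with 4OHT. The sum over the members moved less, since S100A6 and S100A11 dominate it: 1793 to 2165 CPM without 4OHT, 1613 to 1704 with 4OHT, 1573 to 1883 with shXPO7_3 and 1618 to 1946 with shXPO7_5.

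The sequences upstream of the genes are shown for the member that fell the most, the member that rose the most and the 2 silent members. Each is the 250 bases before a RefSeq transcription start on GRCh38.p14, all on chromosome 1, read 5′ to 3′ on the strand of the gene. Capitals mark matches, on either strand, to a TATA box (TATAAA), a GC box (GGGCGG), an AP-1 site (TGANTCA, with N any base) or a CCAAT box (CCAAT). No 2 of the marked matches overlap. Reads were counted per gene and do not say which start was used where a gene has several, as S100A13 and S100A8 do.
S100A10, chr1:151993860-151994109, minus strand: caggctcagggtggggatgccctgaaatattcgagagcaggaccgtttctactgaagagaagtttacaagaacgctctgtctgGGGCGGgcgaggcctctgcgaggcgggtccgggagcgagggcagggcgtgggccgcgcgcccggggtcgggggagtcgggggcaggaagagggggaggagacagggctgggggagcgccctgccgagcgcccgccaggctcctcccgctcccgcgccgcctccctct
S100A13, chr1:153627506-153627755, minus strand: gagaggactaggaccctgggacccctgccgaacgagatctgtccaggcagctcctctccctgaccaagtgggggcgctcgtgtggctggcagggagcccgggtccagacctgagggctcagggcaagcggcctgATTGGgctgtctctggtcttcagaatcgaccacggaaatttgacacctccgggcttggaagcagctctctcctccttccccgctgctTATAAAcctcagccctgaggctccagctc
S100A9, chr1:153357604-153357853, plus strand: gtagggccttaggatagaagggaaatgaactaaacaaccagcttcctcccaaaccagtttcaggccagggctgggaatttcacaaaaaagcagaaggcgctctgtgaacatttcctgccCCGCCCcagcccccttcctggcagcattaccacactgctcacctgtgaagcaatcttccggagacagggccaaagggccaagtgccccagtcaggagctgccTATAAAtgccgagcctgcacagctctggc
S100A8, chr1:153391074-153391323, minus strand: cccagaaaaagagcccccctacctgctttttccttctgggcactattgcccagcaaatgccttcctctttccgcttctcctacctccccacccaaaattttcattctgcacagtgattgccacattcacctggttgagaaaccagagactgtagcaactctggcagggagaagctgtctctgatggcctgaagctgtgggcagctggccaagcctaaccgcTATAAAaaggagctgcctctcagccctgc
The S100A10 stretch held a GC box and none of the other letters, and 71.2% of its bases were G or C. The S100A13 stretch shown held a TATA box 29 bases before the start and a CCAAT box in reverse. Another S100A13 window, chr1:153634362-153634611, held a GC box and neither TATAAA nor CCAAT. The window of this gene at chr1:153627240-153627489 held no match. Both silent genes, S100A8 and S100A9, also had TATAAA 29 bases before the start shown, as did S100A4 at 31 bases. The S100A8 window chr1:153391189-153391438 held CCAAT and no TATAAA. In its window chr1:153390977-153391226 TATAAA lay 126 bases before the start. Over the 16 windows of the 10 members, some of which share bases, TATAAA was found in 5, the GC box in 7, CCAAT in 4 and the AP-1 letters in 2. Of all 35116 promoter windows of the same length, 10.7% held TATAAA, 42.6% the GC box, 32.0% CCAAT and 6.57% the AP-1 letters. A match is only a run of letters, and binding was not measured.

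The members lie within 1.65 Mb of chromosome 1, from S100A10 to S100A1 (GRCh38, positions 151982915 to 153632039), and are taken here in that order. First come S100A10 and S100A11, whose 95% intervals of -1.63 to -1.176 and -0.22 to 0.21 did not overlap. The 45 protein-coding genes of the same span that are not S100 genes included 5 that were tested, the cornified-envelope genes LCE2C, LCE2B, LCE2A, LCE1F and IVL, all higher with 4OHT. With 0 to 2 reads in the non-induced group, all of these but LCE2A passed the filter through libraries with 4OHT, so that their direction was set by the filter. IVL had 0 reads in the non-induced group and 135 in the induced group, at least 43.2-fold higher against a floor of 3 counts over the group. LCE2A rose from 0.588 ± 0.113 to 17.0 ± 1.77 CPM (SD, n = 3; log2 fold change 4.86 ± 0.161 SE, adjusted p = 2.20e-10, edgeR). LCE1F had 1 read in the non-induced group and 964 in the induced group. Next, the stretch S100A9, S100A12, S100A8, S100A7A, S100A7L2 and S100A7, 6 genes that include those of neutrophils and inflamed skin, had no count in any library. S100A6, S100A5, S100A4, S100A3 and S100A2 follow, 4 of these 5 genes were tested, and all 4 fell. S100A5, too low to test, had 1, 1 and 2 reads in the non-induced and 7, 5 and 8 in the induced libraries. S100A16, S100A14, S100A13 and S100A1 come next, 3 of these 4 were tested, and S100A16 and S100A13 rose. S100A1, which acts on calcium handling in muscle, had 2 to 15 reads in the non-induced and induced libraries. It passed the filter through libraries with 4OHT, so that its direction was set by the filter. Its log2 fold change was 1.185 ± 0.473 with an adjusted p of 0.0537 (edgeR), so it was not called.

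Of 11 other S100 genes, S100A1 alone was tested, 4 were at 0 in every library and the rest had too few reads. Since S100A1 passed the filter through libraries with 4OHT, its values do not test its direction. By edgeR 0 of them passed, 1 had an unadjusted p under 0.05, and DESeq2 called 1, as did the fits without the non-induced library T or C or the induced library A, without the filter and with a correction for GC content and length. Of all genes, these fits called from 23.6% (DESeq2) to 63.8% (GC content and length). Genes known to bind S100 proteins or to receive or carry their signals were followed as a list of 23. Of these 21 were tested and 14 passed on induction, 5 higher and 9 lower, beside 50.9% of all genes, 24.8% higher and 26.1% lower. Of the 5 higher, IL1A and KCNK3 had 3 to 13 and 3 to 7 reads in the non-induced libraries. Both passed the filter through libraries with 4OHT, so that their direction was set by the filter. Among the partners of S100A13, IL1A, the gene of interleukin-1 alpha, stood at 0.202 ± 0.112 CPM without and 30.7 ± 1.48 CPM with 4OHT. FGF1 fell from 13.7 ± 1.37 to 6.28 ± 0.463 CPM (log2 fold change -1.12 ± 0.1004, adjusted p = 1.64e-06, edgeR). PLAT, the plasminogen activator whose work at the cell surface S100A10 supports, rose from 243 ± 13.99 to 1155 ± 10.1 CPM (2.25 ± 0.0705, adjusted p = 1.52e-10), and CTSB, the protease cathepsin B, from 1112 ± 102 to 2529 ± 75.2 CPM (1.19 ± 0.0914, adjusted p = 4.04e-07). Annexin A2 (ANXA2), the partner of S100A10, fell by 0.38 ± 0.0668 on the log2 scale (adjusted p = 0.000454), and annexin A1 (ANXA1), that of S100A11, fell by 0.70 ± 0.206 (adjusted p = 0.0130); they and AGER were named after their values were seen. The transcript of AGER, the gene of RAGE, was near the lower edge of detection, at 0.471 CPM without and 0.352 CPM with 4OHT (adjusted p = 0.292, edgeR).

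Among 25 EF-hand proteins outside the S100 family, 23 were tested and 12 passed on induction, 7 higher and 5 lower. That is 12 of 23, against 7 of 8 for the S100 members and 50.9% of all genes. Their median absolute log2 fold change was 0.27, against 0.99 for the S100 members and 0.38 for all genes. Those with the largest changes among called genes averaging 0 or more in log2 CPM were PDCD6, a partner of annexin A11 (0.68 ± 0.0656), EFHD2 (0.61 ± 0.105), the calcineurin subunit PPP3R1 (0.57 ± 0.0902) and the calmodulin gene CALM3 (-0.49 ± 0.0904; log2 fold change ± SE, adjusted p from 3.16e-06 to 0.000701, edgeR). GCA, the gene of grancalcin, lay below that average and fell by 1.94 ± 0.267 (adjusted p = 6.76e-05); it was named after its value was seen.

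The libraries with a hairpin were next compared with the induced ones. There was no hairpin group without 4OHT, and XPO7 RNA was lowered but not absent. A lack of difference here therefore does not show which of the changes under 4OHT depend on XPO7. With shXPO7_3, none of the 8 members passed edgeR's quasi-likelihood test, and 0.124% of all genes did. In that test 0 members had an unadjusted p under 0.05, against 6.41% of all genes. DESeq2 called 0 members and 0.306% of its 31672 genes. The log2 fold changes against induced cells ran from -0.03 for S100A16 to 0.27 for S100A3. For S100A10 the 95% interval was -0.13 to 0.31, for S100A13 -0.18 to 0.24 and for S100A6 -0.22 to 0.23, so that a return to the non-induced level of S100A10 or S100A13 lay outside the interval. S100A10 stood at 103, 95.7 and 86.4 CPM with this hairpin, near the induced libraries at 87.0 to 92.2. S100A13 stood at 267, 222 and 218 CPM, on both sides of the induced range of 224 to 241.

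With shXPO7_5, all 8 members had a log2 fold change above 0 against the same induced libraries, with a median of 0.14 against 0.01 over all genes. Their median absolute log2 fold change was 0.14, below the 0.20 of all genes. None passed edgeR's test, in which 0.589% of all genes did. An unadjusted p under 0.05 was found for 3 members and for 21.6% of all genes, and DESeq2 called 0 members and 1.45% of its 31672 genes. S100A11 stood at 560.3, 465 and 538 CPM, above all 3 induced libraries (0.27 ± 0.0969, adjusted p = 0.188). S100A10 stood at 119, 94.9 and 102 CPM, also above them (0.24 ± 0.102, adjusted p = 0.218). Groups without overlap were found for 26.8% of all genes, with the hairpin higher in 14.2%. S100A3 stood at 1.55, 1.24 and 2.02 CPM and overlapped (0.46 ± 0.207, adjusted p = 0.226). S100A2 ranged most among the libraries of this hairpin, with 1.35, 0.846 and 2.21 CPM on 28 to 81 reads.

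**Figure D2:**
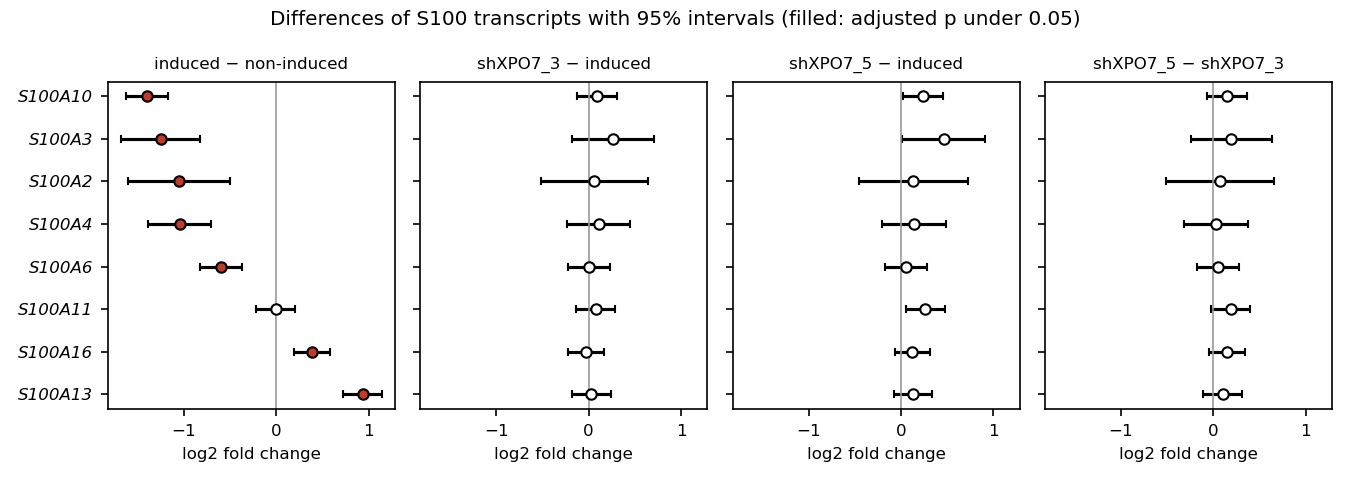
Log2 fold change of the 8 expressed S100 genes, with 95% intervals, in each of the 4 comparisons; filled points had an adjusted p under 0.05 (edgeR). The 7 filled points are all in the comparison of induced with non-induced cells, and the 3 intervals with a hairpin that leave out 0 are those of S100A10, S100A3 and S100A11 with shXPO7_5.

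No member passed edgeR's test of shXPO7_5 against shXPO7_3, which 0.0131% of all genes passed. In that test 0 members had an unadjusted p under 0.05, against 11.9% of all genes. DESeq2 called 0 members and 0.0884% of its 31672 genes. The largest difference was 0.20 for S100A3 (95% interval -0.24 to 0.63) and the next 0.19 for S100A11 (-0.02 to 0.40). XPO7 itself was higher with shXPO7_5 than with shXPO7_3 by 0.92 ± 0.0717 on the log2 scale (adjusted p = 0.000387, edgeR). Both hairpins were compared with the same induced libraries, so their values against them are not independent. Of the 21 tested partners and the 23 tested EF-hand proteins, 0 passed with either hairpin in edgeR's test. An unadjusted p under 0.05 was found for 2 partners and 0 EF-hand proteins with shXPO7_3, where 6.41% of all genes had one, and for 8 and 10 with shXPO7_5, where 21.6% of all genes had one. DESeq2 called 0 and 0 with shXPO7_3 and 1 and 1 with shXPO7_5, beside 0.306% and 1.45% of its 31672 genes. Without the library shXPO7_5 A, 7 partners and 11 EF-hand proteins were called, as were 3634 (23.0%) of the 15790 genes then tested. LCE2A alone of the 5 tested cornified-envelope genes passed, with shXPO7_5, at 28.1 ± 3.53 CPM (0.72 ± 0.115, adjusted p = 0.0192), and the call in that list was lost in 7 of 15 alternatives, among them the fits without any 1 of the 3 induced libraries and without shXPO7_5 T or B.

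Libraries of the same hairpin differed in where the members stood relative to induced cells. In the libraries labelled shXPO7_3 T, shXPO7_5 T and shXPO7_5 B all 8 members were above the mean of the induced libraries, by a median of 0.21, 0.17 and 0.31 on the log2 scale. In shXPO7_3 A, shXPO7_3 B and shXPO7_5 A, 3, 1 and 3 of 8 were above it. The same libraries differed in how the level of a gene went with the GC content of its transcript. Across genes, Spearman's rho between GC content and the log2 ratio to the induced mean was 0.602, 0.635 and 0.797 in the first 3 of these libraries and -0.359, -0.268 and 0.114 in the others. Genes are not independent replicates, and these values describe libraries. The 8 members had a GC content of 54.0 to 60.2%, with a median of 55.7% against 47.9% for all genes tested. With a correction for GC content and length, added after the data were seen, 1 member passed with shXPO7_5, S100A6 at -0.20 (adjusted p = 0.00965, edgeR), while the genes called in all went from 90 to 492 (3.22%), and S100A2, S100A4, S100A13 and S100A16 also changed sign. Without the library shXPO7_5 A, 2 members passed, S100A3 at 0.62 (adjusted p = 0.0485) and S100A11 at 0.34 (adjusted p = 0.0382), while the number of genes called in all went from 90 to 3634. The part of GC content in the values with shXPO7_5 was not tested beyond this correction. On induction the same correction left all 7 calls in place, while the share of all genes called went from 50.9% to 63.8%.

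**Figure D3:**
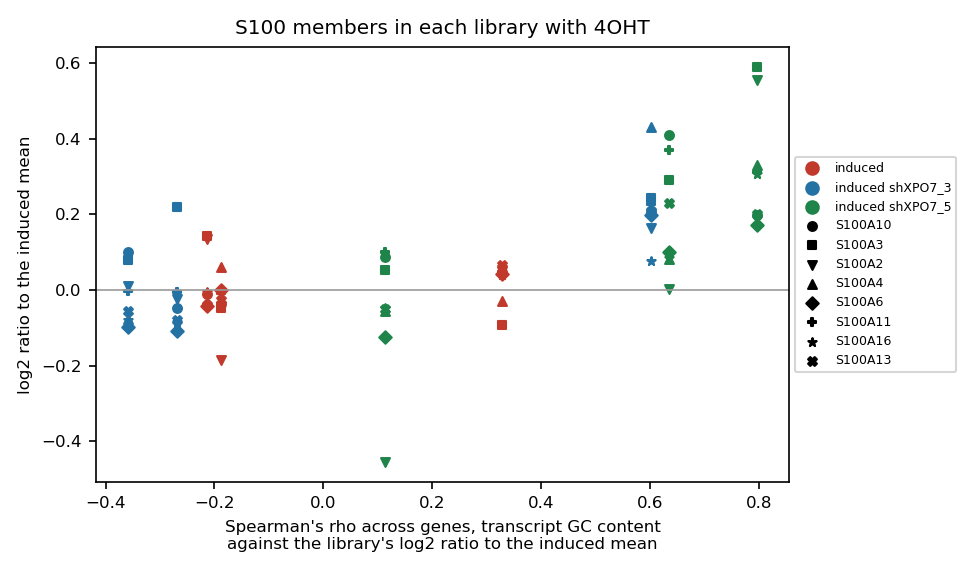
Log2 ratio of each expressed S100 gene to the mean of the 3 induced libraries (a pseudocount of 0.5 CPM was added), for the 9 libraries with 4OHT, against the rank correlation across genes between GC content and the same ratio in that library. The 3 libraries at 0.602 and above, 1 with shXPO7_3 and 2 with shXPO7_5, have every member above 0, and the 9 libraries share the induced mean as their reference.

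Set against the non-induced cells, all 9 libraries with 4OHT, with or without a hairpin, kept the separation of the 7 members. The 9 libraries ran from 86.4 to 119 CPM for S100A10, below the lowest of the 3 non-induced libraries at 220.3 CPM. For S100A4 they ran from 5.53 to 8.21 CPM, below 11.3 CPM, and for S100A6 from 573 to 717 CPM, below 854 CPM. For S100A13 they ran from 218 to 270.3 CPM, above 129 CPM, and for S100A16 from 248 to 326 CPM, above 210.0 CPM. The low genes S100A2 and S100A3 were separated by less, with their highest 4OHT libraries at 2.21 and 2.02 CPM and their lowest non-induced libraries at 2.70 and 2.23 CPM. S100A11 overlapped. Such separation of 9 from 3 libraries was found for 43.4% of all genes tested.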

How the data were processed

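Bulk RNA-seq of IMR90 ER:RAS cells was analysed in 12 libraries, grouped by the sample labels. The authors deposited raw gene counts. In the submitters' processing notes TopHat2 2.0.11, featureCounts 1.18.0 and CASAVA 1.8.4 are listed, with GRCh37 (hg19) as the build. The library kit was stranded. What is not given in the sources used here is which annotation and strand setting counting used and how multiply matching reads were treated. The 92 spike-in entries, all at 0, were left out. Symbols were matched by Ensembl identifier to 49517 genes (99.49% of counts), and lengths, GC content and positions came from GENCODE release 29 on GRCh38, promoter sequences from RefSeq.

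Genes were filtered with filterByExpr (15284 left), scaled by TMM and fitted in edgeR 4.0.16 (R 4.3.3) by quasi-likelihood over all 4 groups without covariates, with Benjamini-Hochberg adjustment over all genes and a threshold of 0.05. For each member log2 CPM (pseudocount 0.5) was also compared by a two-sided exact permutation test. Depth was 28534141 to 60397769 counts per library, and no libraries were repeats (chi-square of at least 4.27 per gene). The fit was tested on simulated counts. The members, lists and tests were chosen with earlier results of these data known. Named genes were all members, up to 4 called genes a list with the largest change on induction among genes averaging 0 or more in log2 CPM, and list genes called with a hairpin. Alternatives were RLE and upper-quartile factors, other filters, a replicate block, leaving out each library, a fit to the compared groups alone, DESeq2 1.42.0, a minimum log2 fold change of 1 and, added after the data were seen, a spline correction for GC content and length. The labels do not say whether the replicate letters pair the libraries.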

Additional observations from a re-analysis of the deposited data

How the results depend on the processing

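The number of S100 members called on induction was 7 under every alternative, each library left out included, except that a log2 fold change of at least 1 left 4 (S100A2, S100A3, S100A4 and S100A10). With that minimum 16.8% of all genes tested were called. Under the other alternatives the share ran from 23.6% with DESeq2 to 63.8% after correction for GC content and length. The number was 0 with shXPO7_3 and between the hairpins throughout, where at most 2.45% and 0.288% of all genes were called. With shXPO7_5 it ran from 0 to 2 as single libraries were left out, with 2 without shXPO7_5 replicate A, where 23.0% of all genes were called. It was 1 after correction for GC content and length, where 3.22% of all genes were called. Upper-quartile factors moved the median of all genes on induction to -0.10 and left the 7 calls.

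The remaining changes are changes of sign in members that were not called. On induction S100A11 was 0.0068 without the filter and 0.0046 with DESeq2, and ran from -0.060 to 0.092 as libraries were left out. With shXPO7_3, S100A6 was -0.0049 without the filter, -0.00058 with the replicate block and -0.045 after GC correction. Leaving out libraries gave ranges of -0.055 to 0.14 for S100A2, -0.10 to 0.21 for S100A4, -0.11 to 0.055 for S100A6, -0.0095 to 0.11 for S100A11 and -0.073 to 0.081 for S100A13. With shXPO7_5 the ranges were -0.31 to 0.42 for S100A2 and -0.0071 to 0.14 for S100A6, and GC correction gave -0.059 for S100A2, -0.066 for S100A4, -0.20 for S100A6, -0.048 for S100A13 and -0.089 for S100A16. Between the hairpins the ranges were -0.36 to 0.35 for S100A2, -0.0079 to 0.35 for S100A3, -0.089 to 0.24 for S100A4 and -0.0067 to 0.16 for S100A6. There GC correction gave -0.090 for S100A2, -0.021 for S100A3, -0.12 for S100A4, -0.16 for S100A6, -0.016 for S100A10, -0.049 for S100A13 and -0.026 for S100A16. The cause of these changes was not tested.

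With the replicate block 7, 0, 0 and 0 members were called in the 4 comparisons, the same calls. Same-lettered libraries deviated from their group means with correlations of -0.60 to 0.85 over 15 pairs, 10 of them over 0.1. Pairs with different letters ran from -0.878 to 0.86. These values do not settle whether the letters pair the libraries. At 28 to 111 reads per library, S100A2 and S100A3 had the widest intervals.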
